A study of Homo sapiens with 6 samples.

Results

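Axon guidance genes encode ligands and receptors that steer growing cells. The set examined here covers the semaphorins with their plexin and neuropilin receptors, and the netrins with the UNC5 receptors. It also covers the netrin-G proteins, the ephrins with the Eph receptors, the Slits with the Robo receptors, and the teneurins. Members were matched by gene name alone, but the families were chosen with earlier results of these data known. The name pattern matched 74 of the 57396 genes in the deposited count table. Their mRNA was counted in PC-3 cells, an established prostate carcinoma line, after 5 days with 160 µM S-adenosylmethionine (SAM, the methyl donor of the cell) or with PBS as the vehicle. Each group held 3 libraries of the same line, named here control 1 to 3 and SAM 1 to 3. Nothing in the labels says that these came from separate cultures, so p-values measure the spread between libraries, which may be technical.

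These families were named for their part in wiring the nervous system, but epithelial and tumour cells use them to control adhesion and motility. Class 3 semaphorins are secreted and bind neuropilins, which lend them plexins as signalling partners, while most semaphorins of the other classes sit in the membrane and bind plexins directly. Ephrins are tethered ligands, and their Eph receptors are tyrosine kinases that signal at contacts between cells. Netrins are laminin-related secreted proteins that bind DCC, neogenin and UNC5 receptors. Teneurins are very large membrane proteins that bind latrophilins on neighbouring cells.

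The libraries held 9379258 to 28995160 gene counts, and 15312 genes passed the filter on low counts. Of these, 795 were higher and 803 lower with SAM by edgeR's quasi-likelihood test (adjusted p under 0.05 after Benjamini-Hochberg correction over all tested genes). Epithelial markers were abundant in every library, with 3331 to 3474 CPM summed over KRT8, KRT18, KRT19, EPCAM and CDH1 in controls and 2851 to 3595 CPM with SAM (CPM, read counts scaled to the TMM-adjusted library size). Of 9 neuronal markers, 6 averaged under 0.5 CPM and DCX had no count in any library. Their sum was 13.9 to 15.5 CPM in controls and 10.6 to 12 CPM with SAM, mostly MAP2 and TUBB3, and its part in the results on members was not tested. The 5 endothelial markers summed to at most 1.61 CPM in any library, and of the 6 fibroblast markers only COL1A1 averaged above 0.5 CPM, and DCN and LUM were at 0 throughout. Across genes, control 1 and SAM 2 deviated from their group means in a similar way (r = 0.45), and SAM 3 had the steepest slopes of log2 CPM on GC content (0.12 per 10 percentage points, against -0.06 to -0.001 elsewhere) and on transcript length (-0.11 per doubling, against -0.05 to 0.07). Where leaving out a library changed the call of a gene described here, this is given beside it.

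PC-3 cells carried mRNA for all of these families. Levels per kb of the canonical transcript, averaged over the 6 libraries, ran from 123 CPM per kb for NRP1 (neuropilin-1) and 120 for EPHA2, a receptor tyrosine kinase, down to 0.00144 for SLIT1. Both leading genes are receptors, and their libraries covered overlapping ranges on this scale. The next were the secreted semaphorin SEMA3F at 54.5, the ephrin-B receptor EPHB4 at 49.5, the GPI-anchored semaphorin SEMA7A at 47.6 and the membrane semaphorin SEMA4B at 44.3 CPM per kb. The leading member of the other families was PLXNB2 for plexins (36.4), EFNB1 for ephrins (22.4), NTN4 for netrins (21.8), ROBO1 for Robo receptors (7.92), SLIT2 for Slits (6.22), TENM3 for teneurins (2.07) and UNC5B for UNC5 receptors (0.425 CPM per kb). Netrin receptors of the UNC5 family were thus the least abundant family, with no member above 0.425 CPM per kb.

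**Figure D1:**
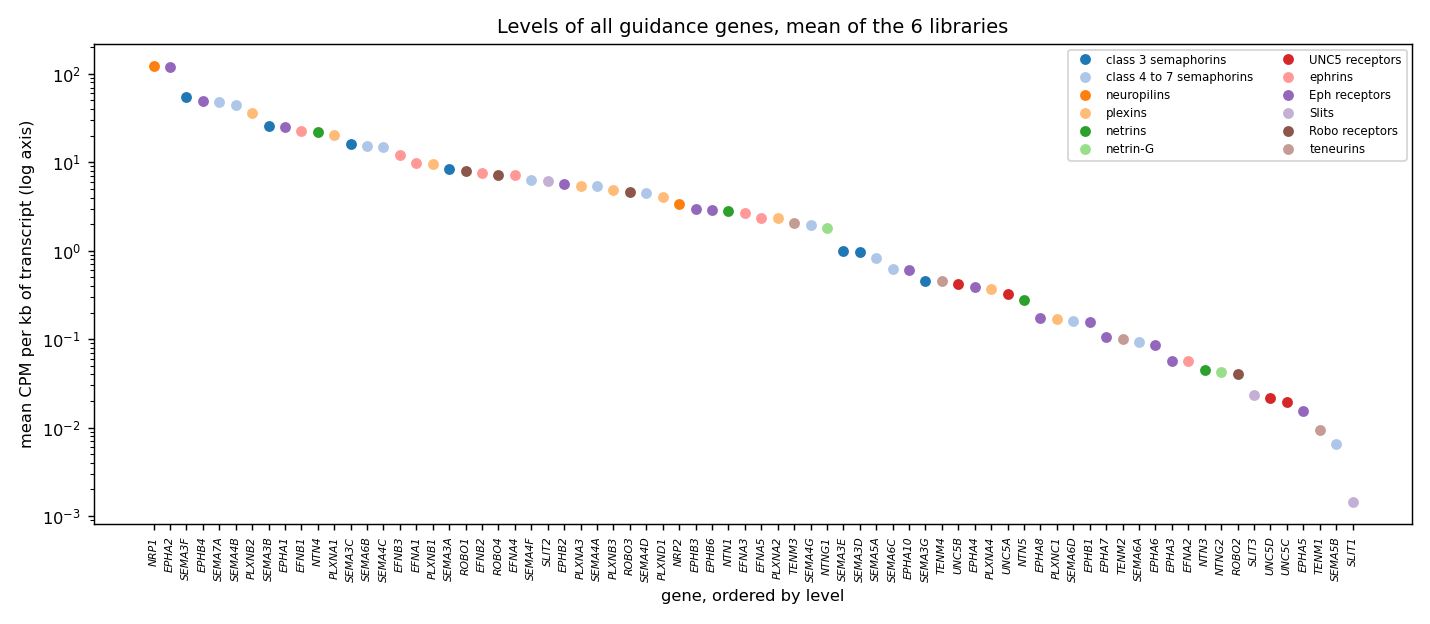
Mean CPM per kb of canonical transcript over the 6 libraries (vertical axis, log scale) for each of the 74 guidance genes (horizontal axis, ordered by level), coloured by family. NRP1 and EPHA2 lead at 123 and 120, and SLIT1 is lowest at 0.00144.

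Of the 74 genes, 62 passed the filter on low counts, and 14 of these changed with SAM. This was 22.6% of those tested, against 10.4% of all genes tested. The families were chosen with earlier results of these data known, so this difference carries no test. The changes were mostly decreases, with 11 members lower (5.24% of all tested genes were lower) and 3 higher (5.19% of all tested genes were higher). The median log2 fold change was -0.18 over the 62 members and -0.01 over all tested genes. In 23 members every SAM library lay below every control library, and in 7 every SAM library lay above (18.8% and 17.9% of all tested genes). The 10 called ligands were SEMA3A, SEMA3B, SEMA3D, SEMA3E, SEMA3G, SEMA4C, SEMA6B, SEMA7A, NTN1 and NTN4, among 31 tested ligands. The 3 called receptors were NRP1, PLXNB2 and EPHA2, among 28 tested receptors, and the remaining call was the teneurin TENM4. Calls thus made up 32.3% of tested ligands and 10.7% of tested receptors, the latter near the 10.4% of all tested genes. These numbers changed with the library left out, and so did those over all genes. For all genes only the range over these fits is given, with the processing below. The member counts of single fits are therefore not a comparison with all genes. The 14 called members kept their direction in each of these fits. Without control 1, 2 and 3 the members that were lower numbered 3, 4 and 2, and those that were higher 1, 1 and 0. Without SAM 1, 2 and 3 there were 1, 14 and 19 lower and 0, 4 and 3 higher members. With a trend on transcript length and GC content removed from each library, 18 were lower and 4 higher.

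**Figure D2:**
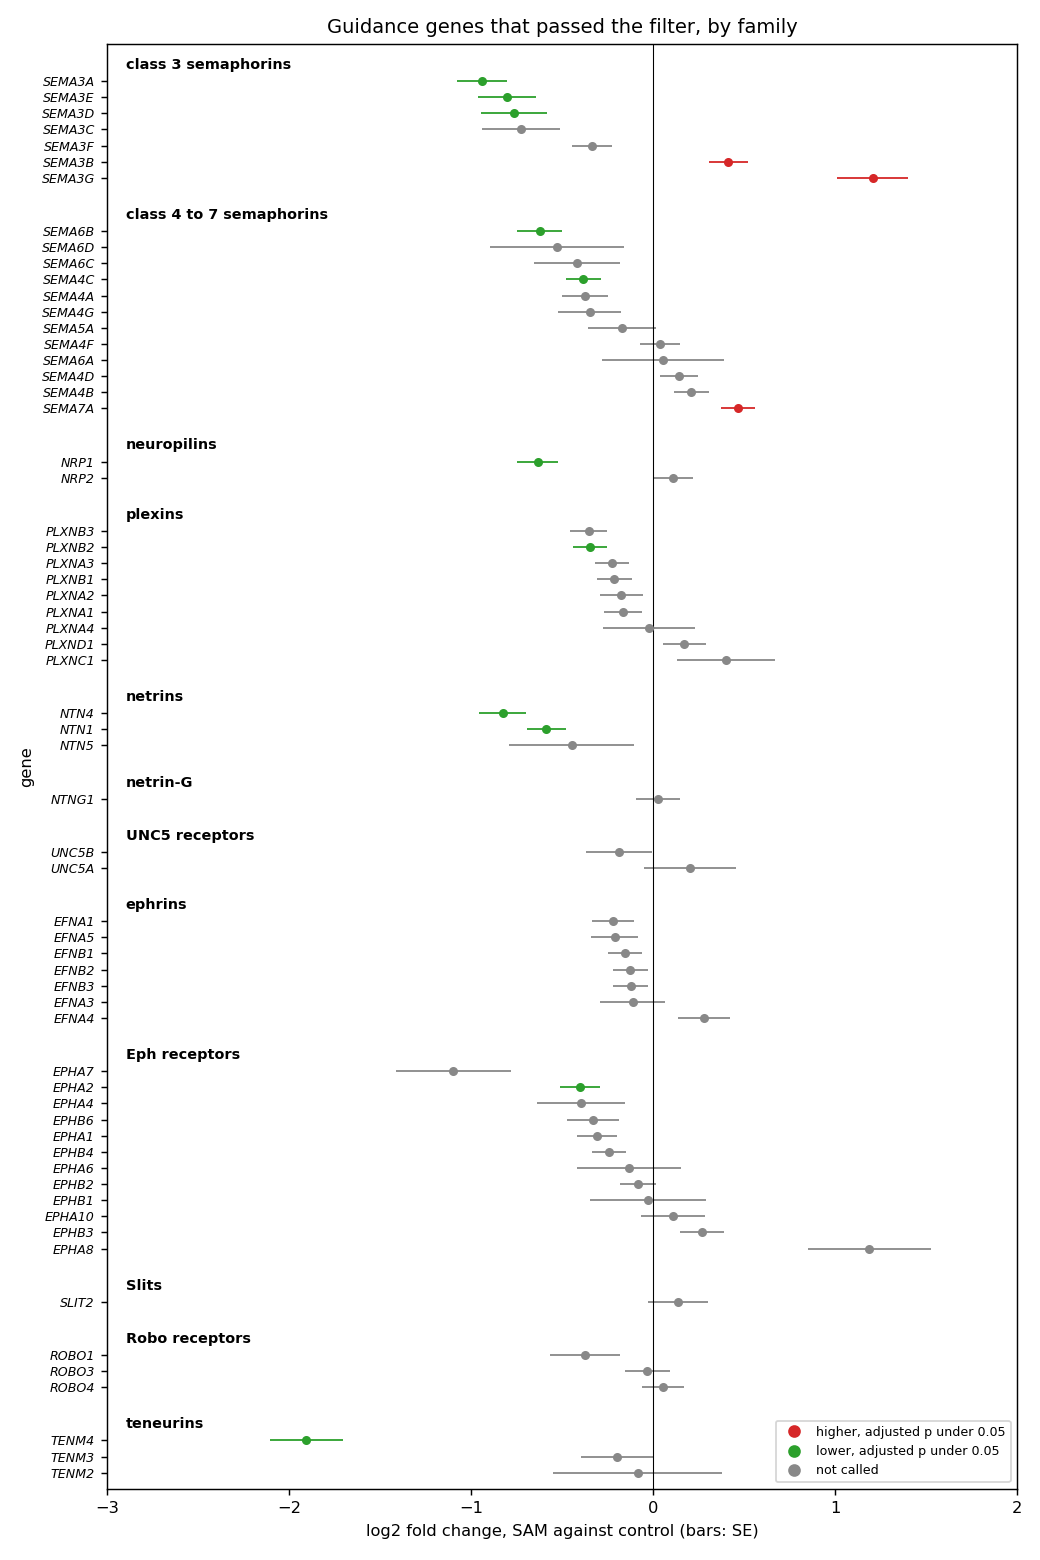
Log2 fold change of SAM against control (horizontal axis, bars show the SE of the edgeR fit) for the 62 guidance genes that passed the filter (vertical axis), grouped by family, with called decreases in green, called increases in red and the rest in grey. TENM4 lies farthest to the left at -1.91, and SEMA3G farthest to the right at 1.20.

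TENM4, encoding teneurin-4, had the strongest decrease of all members. It was read at 10.5, 10 and 10.2 CPM in control 1 to 3 and at 2.0, 3.64 and 2.90 CPM in SAM 1 to 3. The groups were far apart, and SAM 2, the highest SAM library, still had well under the lowest control value. Its log2 fold change was -1.91 (SE 0.20, adjusted p = 0.00139, n = 3 per group by edgeR). The call held in each of the 20 alternative fits, with each library left out among them, where the log2 fold change lay between -2.10 and -1.66 and the adjusted p reached 0.0157 at most. TENM4 (ENSG00000149256) spans positions 78652831 to 79440948 of chromosome 11 in GRCh38. TENM3 was the most abundant teneurin and did not pass, with 26.7, 23.4 and 22.4 CPM in controls and 19.3, 29 and 15.1 CPM with SAM (log2 fold change -0.20, SE 0.20, edgeR adjusted p = 0.524). Its groups overlapped, with SAM 2 the highest and SAM 3 the lowest of the 6 libraries. It was called only without SAM 2 (adjusted p = 0.0396, 0.0396 to 0.952 over the alternatives), and an overlapping gene, AC108142.1, holds 10.3% as many counts. TENM2 averaged 1.02 ± 0.234 in controls and 1.04 ± 0.756 CPM with SAM (SD, n = 3), and TENM1, within whose bounds the abundant STAG2 overlaps, had 14 counts in all 6 libraries. Whether TENM4 differed from the other teneurins in its response was not tested. The latrophilins, listed as LPHN1, LPHN2 and LPHN3, did not pass, with log2 fold changes of 0.02 (SE 0.10), -0.25 (SE 0.12) and -0.43 (SE 0.19).

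SEMA3G had the strongest increase and TENM4 the strongest decrease, so the 250 bases before their RefSeq start sites are shown, with those of SEMA3D, a decreased class 3 semaphorin. Of the 14 called members, 10 have at least 1 promoter window in that RefSeq table. The sequences are on the minus strand of GRCh38.p14, written 5′ to 3′, at chr11:79441031-79441280 for TENM4, chr3:52445104-52445353 for SEMA3G and chr7:85187057-85187306 for SEMA3D. Capitals mark CG, the dinucleotide at which DNA is methylated in human cells.
TENM4: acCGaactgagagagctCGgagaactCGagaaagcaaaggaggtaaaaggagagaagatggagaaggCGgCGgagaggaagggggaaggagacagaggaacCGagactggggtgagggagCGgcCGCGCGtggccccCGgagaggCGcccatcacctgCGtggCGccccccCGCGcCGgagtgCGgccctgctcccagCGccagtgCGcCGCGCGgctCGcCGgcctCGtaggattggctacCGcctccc
SEMA3G: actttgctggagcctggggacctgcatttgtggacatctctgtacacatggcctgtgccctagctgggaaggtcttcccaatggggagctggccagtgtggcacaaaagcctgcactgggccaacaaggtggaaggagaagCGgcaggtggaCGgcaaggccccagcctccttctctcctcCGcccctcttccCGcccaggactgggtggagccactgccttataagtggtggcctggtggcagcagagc
SEMA3D: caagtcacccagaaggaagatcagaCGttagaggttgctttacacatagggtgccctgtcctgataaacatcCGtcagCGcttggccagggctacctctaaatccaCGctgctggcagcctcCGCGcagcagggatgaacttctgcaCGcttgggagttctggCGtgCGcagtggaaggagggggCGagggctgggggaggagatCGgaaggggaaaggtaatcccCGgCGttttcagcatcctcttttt
The TENM4 window held 27 CG dinucleotides, a number that 17.7% of 35116 RefSeq promoter windows of this length reached or exceeded. The SEMA3G window held 4, at or below which 34.3% of windows lay, and the SEMA3D window held 13, against a median of 11. CG reads the same on both strands, so the count covers both. Windows of the other lower members held 1 and 6 (SEMA3E), 12 (PLXNB2), 15 (EPHA2), 20 and 36 (NTN4) and 30 CG (SEMA4C). Those of the other higher members held 9, 11, 14, 16 and 26 (SEMA3B) and 17 and 38 CG (SEMA7A). The numbers of lower and higher members thus covered overlapping ranges, and their relation to the fold changes was not tested. Promoter methylation was not measured in these libraries, and the counts describe the sequence alone.

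All 7 class 3 semaphorins passed the filter and fell into decreases and increases. Of these, 3 were lower, 2 were higher and 2 did not pass, with a median log2 fold change of -0.73. Calls were 71.4% of this family, against 10.4% of all tested genes, a difference that carries no test. In each of the 7 the SAM libraries lay wholly on one side of the controls (36.7% of all tested genes). SEMA3A, the repellent ligand that collapses growth cones through NRP1, was read at 95.5, 85.2 and 88.3 CPM in control 1 to 3 and at 45.6, 56.6 and 38.0 CPM in SAM 1 to 3. Every SAM library was clearly below the lowest control, with SAM 3 the lowest. On the log2 scale the fold change was -0.94 (SE 0.14, edgeR adjusted p = 0.00588), and the call was lost without SAM 1 (adjusted p = 0.0547, 5.19e-12 to 0.0547 over the alternatives).

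SEMA3E, which can signal through plexin-D1 without a neuropilin, fell from 9.55, 8.13 and 9.70 CPM to 5.58, 5.67 and 4.29 CPM. SEMA3D fell from 9.01, 8.08 and 8.03 CPM to 5.72, 5.24 and 3.56 CPM. In both genes the groups did not overlap and SAM 3 was the lowest library. The log2 fold changes were -0.81 (SE 0.16, edgeR adjusted p = 0.0165) for SEMA3E and -0.77 (SE 0.18, adjusted p = 0.0299) for SEMA3D. Neither stayed called without control 1, 2 or 3 or SAM 1, nor did SEMA3D without both control 1 and SAM 2, and over the alternatives adjusted p ran from 0.000437 to 0.0953 for SEMA3E and from 0.00141 to 0.117 for SEMA3D. SEMA3C was read at 106, 94.0 and 92.7 CPM in controls and 66.6, 73.7 and 36.4 CPM with SAM. Its groups were also apart, but SAM 3 lay far below the other SAM libraries, and it did not pass (log2 fold change -0.73, SE 0.21, edgeR adjusted p = 0.0580). It was called in 9 of 20 alternatives, among them those without SAM 2 or SAM 3, DESeq2, voom, upper-quartile scaling, no filter, the term for control 1 and SAM 2, and the length and GC correction (adjusted p 3.34e-07 to 0.184). SEMA3F, the most abundant semaphorin per kb and a ligand that prefers NRP2, averaged 220 ± 14.2 in controls and 174 ± 21.9 CPM with SAM (SD, n = 3) and did not pass either (adjusted p = 0.0797). SEMA3F was called without SAM 3 (adjusted p = 0.0203), by DESeq2 and with the length and GC trend removed, within 0.0108 to 0.244 over the alternatives.

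SEMA3G rose from 1.18, 1.54 and 1.37 CPM in control 1 to 3 to 3.41, 2.96 and 3.23 CPM in SAM 1 to 3. It is a low transcript here, but every SAM library lay well above the highest control. By log2 fold change the difference was 1.20 (SE 0.20, edgeR adjusted p = 0.00849), and the call was lost without control 3 or SAM 1 (adjusted p 0.000191 to 0.0743 over the alternatives). SEMA3B, a semaphorin known as a tumour suppressor of the short arm of chromosome 3, rose from 64.0, 77.8 and 67.9 CPM to 89.7, 88.8 and 101 CPM. The groups were separate but close, with control 2 the highest control. SAM against control gave a log2 fold change of 0.41 (SE 0.11, edgeR adjusted p = 0.0405), and the call was lost without control 1, 2 or 3 or SAM 1, without both control 1 and SAM 2, and with library totals as the only scaling (adjusted p 0.00793 to 0.184 over the alternatives).

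The class 3 semaphorins lie on chromosomes 7 and 3, and the grouping given here was chosen after the values were seen and carries no test. SEMA3C, SEMA3E, SEMA3A and SEMA3D lie in that order on chromosome 7 within 4.44 Mb, from position 80742538 to 85186855 in GRCh38, and had log2 fold changes of -0.73, -0.81, -0.94 and -0.77. The other 3, SEMA3F, SEMA3B and SEMA3G, lie on chromosome 3 and had -0.34, 0.41 and 1.20. Between the chromosome 7 genes, 3 further genes were tested, and none was called. They were CACNA2D1 (log2 fold change -0.37, SE 0.21), PCLO (-0.24, SE 0.24) and AC010091.1 (0.0008, SE 0.30). For CACNA2D1 every SAM library lay below every control library (18.8% of all tested genes), and for PCLO and AC010091.1 the groups overlapped.

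Among the 12 tested semaphorins of classes 4 to 7, 2 were lower, 1 was higher and 9 did not pass, with a median log2 fold change of -0.26. Calls were 25% of these, against 10.4% of all tested genes, again without a test. SEMA7A, the GPI-anchored semaphorin that binds plexin-C1 and beta-1 integrin, rose from 127, 136 and 142 CPM in controls to 198, 184 and 176 CPM with SAM. All SAM libraries exceeded the highest control. The log2 fold change was 0.47 (SE 0.10, edgeR adjusted p = 0.0185), and the call was lost without control 1, 2 or 3 or SAM 1 and without both control 1 and SAM 2 (adjusted p 0.00042 to 0.103 over the alternatives). Its receptor PLXNC1 was scarce at 1.12 ± 0.229 CPM in controls and 1.40 ± 0.303 CPM with SAM (SD, n = 3) and did not pass (log2 fold change 0.40, SE 0.27). PLXNC1 overlaps CEP83, which held 1260 counts against 139 for PLXNC1.

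SEMA6B, a membrane semaphorin that binds class A plexins, fell from 70.0, 76.9 and 68.6 CPM to 39.9, 44.9 and 55.3 CPM. No SAM library reached the controls, and SAM 3 came nearest. Its log2 fold change was -0.62 (SE 0.12, edgeR adjusted p = 0.0168), not called without control 1, 2 or 3 or SAM 1, nor without both control 1 and SAM 2 (adjusted p 2.33e-05 to 0.0768 over the alternatives). SEMA4C, a ligand of plexin-B2, fell from 59.9, 67.4 and 57.7 CPM to 45.5, 45.4 and 51.0 CPM. Its groups were separate by a small margin (log2 fold change -0.38, SE 0.10, edgeR adjusted p = 0.0363), and it was called without SAM 3 but not without any other single library or without both control 1 and SAM 2 (adjusted p 0.00702 to 0.147 over the alternatives). The other class 4 semaphorins lay between SEMA4A at -0.37 (SE 0.13) and SEMA4B at 0.21 (SE 0.09), and none passed. Without SAM 3, SEMA4A and SEMA4G were called, and SEMA4A also with the length and GC correction (adjusted p 0.0272 to 0.252 for SEMA4A over the alternatives).

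**Figure D3:**
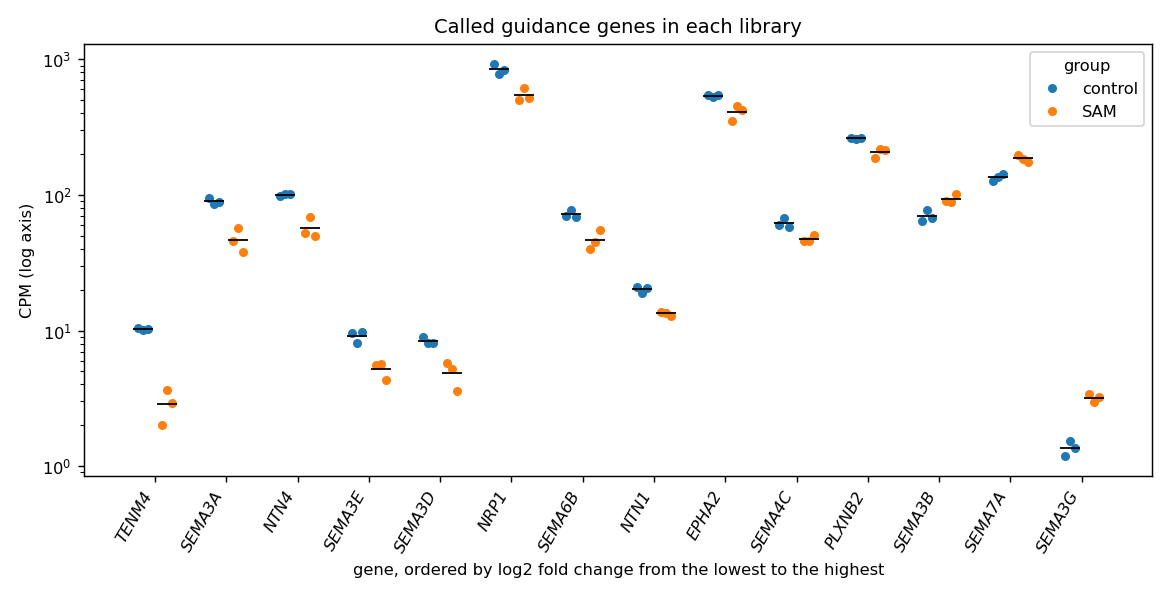
CPM (vertical axis, log scale) of the 14 called guidance genes in each library, where each point is a library (blue for control and orange for SAM) and each short line a group mean. NRP1 averages 847 CPM in controls and 545 CPM with SAM. In each gene the groups do not overlap (36.7% of all tested genes), but the genes were picked by this same comparison.

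NRP1, the neuropilin that binds SEMA3A and also VEGFA, was the most abundant member and fell with SAM. It was read at 930, 781 and 829 CPM in control 1 to 3 and at 501, 618 and 515 CPM in SAM 1 to 3. The groups did not overlap, and control 1 and SAM 2, which deviate together, were the highest library of their group. On the log2 scale the fold change was -0.64 (SE 0.11, edgeR adjusted p = 0.0114). Without both of those libraries it was -0.66 (adjusted p = 0.0205), and the call was lost without control 1 or 3 or SAM 1 (adjusted p 5.94e-06 to 0.0743 over the alternatives). NRP2 was read at 21.8, 21.1 and 22.5 CPM in controls and 24.5, 25.5 and 20.5 CPM with SAM. Its groups overlapped and it did not pass (log2 fold change 0.11, SE 0.11, edgeR adjusted p = 0.526), and the difference between both neuropilins was not tested.

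Of 9 plexins, all tested, PLXNB2 fell and the other 8 did not pass, with a family median of -0.18. This was 11.1% called, near the 10.4% of all tested genes. PLXNB2, which binds SEMA4C, was read at 261, 259 and 263 CPM in controls and 186, 217 and 213 CPM with SAM. The controls were tight and every SAM library was lower, SAM 1 most. By log2 fold change the difference was -0.35 (SE 0.09, edgeR adjusted p = 0.0444), and the call was lost without control 1, 2 or 3 or SAM 1, without both control 1 and SAM 2, and with upper-quartile scaling (adjusted p 0.0113 to 0.193 over the alternatives). PLXNB3 had a log2 fold change of -0.36 (SE 0.10) and an adjusted p of 0.0517, just above the threshold. It was called in 7 of 20 alternatives, namely without SAM 2, without SAM 3, with library totals, with no filter, with the 1 CPM minimum, with the term for control 1 and SAM 2, and with the length and GC correction (adjusted p 0.0241 to 0.249). The class A plexins that signal for SEMA3A and NRP1 did not pass, with PLXNA1 at 199 ± 6.47 CPM in controls and 177 ± 21.1 CPM with SAM and PLXNA4 at 4.82 ± 0.206 and 4.82 ± 1.97 CPM (SD, n = 3). PLXND1, the receptor of SEMA3E, had a log2 fold change of 0.17 (SE 0.12). Thus SEMA3A and NRP1 were both lower, as were SEMA4C and PLXNB2, while SEMA3E was lower with no call for its receptor. Nor was there a call for PLXNC1 beside SEMA7A, for class A plexins beside SEMA6B, or for EFNA1 beside EPHA2. NTN1 and NTN4 were lower with no call for UNC5A, UNC5B or NEO1. SEMA3B and SEMA3G were higher while NRP1 was lower and NRP2 was not called.

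Both abundant netrins fell. NTN4, a netrin of basement membranes, was read at 98.5, 102 and 102 CPM in control 1 to 3 and at 52.1, 69.2 and 49.4 CPM in SAM 1 to 3. The controls were nearly equal and SAM 2 was the highest SAM library, still clearly lower. SAM against control gave a log2 fold change of -0.83 (SE 0.13, edgeR adjusted p = 0.00771), and the call was lost without control 3 or SAM 1 (adjusted p 2.31e-09 to 0.0611 over the alternatives). NTN1, the classical netrin, fell from 21.0, 18.8 and 20.6 CPM to 13.7, 13.5 and 12.9 CPM. The SAM libraries lay close together and all below the controls (log2 fold change -0.59, SE 0.11, edgeR adjusted p = 0.0119), with the call lost without control 1, 2 or 3 or SAM 1 and without both control 1 and SAM 2 (adjusted p 0.00154 to 0.0877 over the alternatives). NTN5 had a log2 fold change of -0.45 (SE 0.34) at a level near 0.5 CPM and did not pass, nor did the netrin-G gene NTNG1 (0.03, SE 0.12).

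Receptors for these netrins were scarce or did not pass. UNC5B averaged 3.11 ± 0.359 in controls and 2.70 ± 0.184 CPM with SAM, and UNC5A 1.11 ± 0.155 and 1.29 ± 0.285 CPM (SD, n = 3), with overlapping groups in both. DCC, the attractive netrin receptor, had 2 counts in all 6 libraries together. Neogenin, NEO1, was read at 38.3, 34.1 and 36.9 CPM in controls and 26.0, 34.9 and 25.8 CPM with SAM, where SAM 2 overlapped the controls (log2 fold change -0.34, SE 0.13, edgeR adjusted p = 0.108). Without SAM 2 and with the term for control 1 and SAM 2 NEO1 was called (adjusted p 0.0132 to 0.301 over the alternatives).

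Among 12 tested Eph receptors EPHA2 was lower and 11 did not pass, and none of the 7 tested ephrins passed. Eph calls were thus 8.33% of those tested, near the 10.4% of all tested genes. EPHA2, a receptor of ephrin-A1 that many carcinoma cells carry in abundance, was read at 548, 530 and 542 CPM in controls and 349, 452 and 425 CPM with SAM. Every SAM library was lower, SAM 1 most. The log2 fold change was -0.40 (SE 0.11, edgeR adjusted p = 0.0443), and the call was lost without control 1, 2 or 3 or SAM 1, without both control 1 and SAM 2, and with upper-quartile scaling (adjusted p 0.00829 to 0.179 over the alternatives). Its ligand EFNA1 averaged 16.5 ± 1.44 in controls and 14.2 ± 0.647 CPM with SAM (SD, n = 3) and did not pass (log2 fold change -0.22, SE 0.11), except with the length and GC correction (adjusted p 0.0408 to 0.509 over the alternatives). EPHB4, the receptor of ephrin-B2, was read at 230, 237 and 233 CPM in controls and 183, 197 and 214 CPM with SAM. These groups were apart, but the gene did not pass (log2 fold change -0.24, SE 0.09, edgeR adjusted p = 0.114). Without SAM 3 and with the length and GC correction EPHB4 was called (adjusted p 0.0311 to 0.308 over the alternatives). EPHA8 and EPHA7, both near 1 CPM or below, had the outermost Eph fold changes, 1.19 (SE 0.34, adjusted p = 0.0518) and -1.10 (SE 0.32, adjusted p = 0.0534). EPHA8 was called in 6 of the 18 alternatives that tested it (without SAM 2, without both control 1 and SAM 2, with a term for them, with no filter, with robust dispersion and with the length and GC correction, adjusted p 0.0134 to 0.223). EPHA7 was called in 2 of 18, with library totals and with that term (adjusted p 0.0442 to 0.175). The ephrins ranged from -0.22 for EFNA1 to 0.28 for EFNA4 (SE 0.14), and EFNB1, the most abundant, averaged 78.1 ± 3.29 in controls and 70.1 ± 4.50 CPM with SAM (SD, n = 3).

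No Slit or Robo gene passed. SLIT2, the secreted repellent, was read at 54.1, 42.6 and 46.8 CPM in controls and 55.9, 62.8 and 38.6 CPM with SAM. Its groups overlapped fully (log2 fold change 0.14, SE 0.17, edgeR adjusted p = 0.598). ROBO1, its main receptor, was read at 62.9, 59.5 and 63.5 CPM in controls and 48.9, 62.6 and 32.0 CPM with SAM. SAM 3 was lowest by far and SAM 2 lay among the controls, and the gene did not pass (log2 fold change -0.38, SE 0.19, edgeR adjusted p = 0.213). It was called without SAM 2 and with no filter on low counts (adjusted p = 0.0300 and 0.0295, up to 0.417 over the alternatives). ROBO3 and ROBO4 had log2 fold changes of -0.03 (SE 0.13) and 0.05 (SE 0.12).

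**Figure D4:**
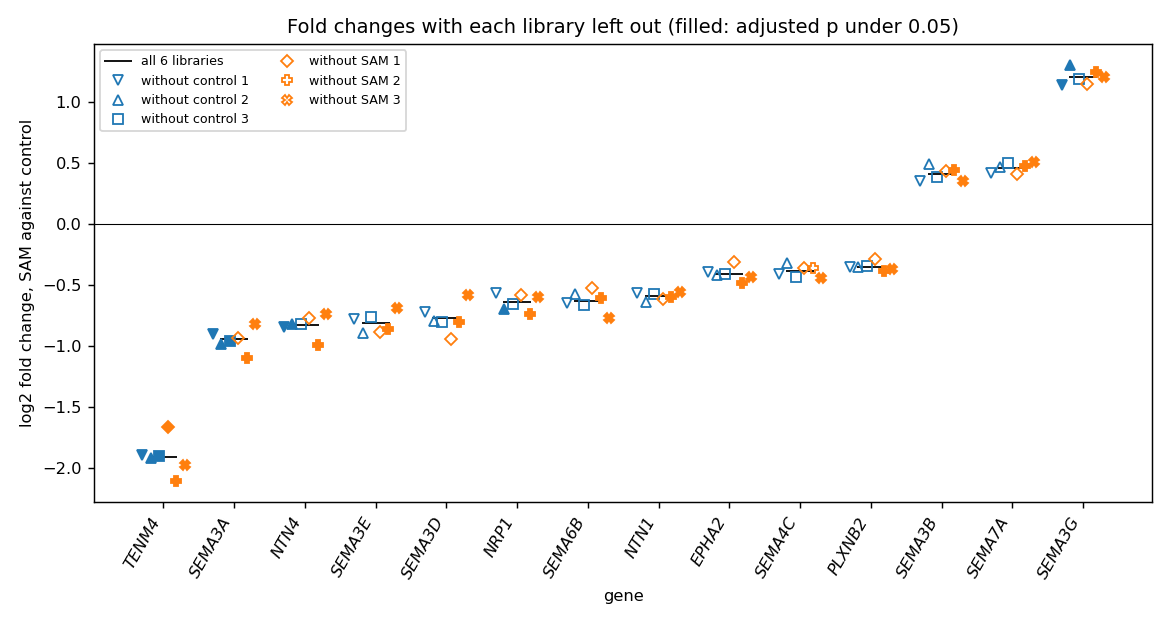
Log2 fold change of SAM against control (vertical axis) for the 14 called guidance genes (horizontal axis) in all 6 libraries (black lines) and with 1 library left out (symbols, blue for a control and orange for a SAM library), filled where the edgeR adjusted p stayed under 0.05. No direction turned, and TENM4 alone is filled throughout.

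Few of the 84 listed partners and effectors of these pathways passed the test. Of 68 tested, 2 were higher, 2 were lower and 64 did not pass, which is 5.88% against 10.4% of all tested genes. SDC1, the heparan sulfate proteoglycan syndecan-1, rose from 176, 164 and 171 CPM to 266, 245 and 254 CPM. All SAM libraries lay far above the controls (log2 fold change 0.58, SE 0.09, edgeR adjusted p = 0.00669). RTN4R, the Nogo receptor, rose from 15.5 ± 0.781 to 21.3 ± 2.18 CPM (SD, n = 3, edgeR adjusted p = 0.0334). TIAM1, a Rac exchange factor, and FYN, a Src-family kinase, both listed as Eph effectors, fell from 64.7 ± 5.10 to 43.9 ± 8.44 CPM and from 36.3 ± 1.60 to 26.6 ± 3.0 CPM (edgeR adjusted p = 0.0296 and 0.0281). The call of SDC1 was lost without control 2 or 3, and those of RTN4R, TIAM1 and FYN without control 1, 2 or 3 or SAM 1, and for RTN4R and FYN also without both control 1 and SAM 2 (adjusted p up to 0.0695, 0.156, 0.137 and 0.151 for SDC1, RTN4R, TIAM1 and FYN). Partners called lower numbered 0 without control 1, 2 or 3 or SAM 1, 12 without SAM 2 and 6 without SAM 3, and those called higher 1, 0, 0, 1, 2 and 4 without control 1 to 3 and SAM 1 to 3. The counts over all genes moved too, and their range in these fits is given with the processing below. VEGFA, another ligand of NRP1, averaged 181 ± 7.29 in controls and 150 ± 10.5 CPM with SAM and did not pass (log2 fold change -0.27, SE 0.09, edgeR adjusted p = 0.0925), but was called without SAM 2 (adjusted p 0.0344 to 0.330 over the alternatives).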

How the data were processed

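Messenger RNA of PC-3 cells was sequenced in 6 libraries, 3 per group, and groups and replicate numbers were taken from the sample titles. The authors deposited raw counts per Ensembl gene and a normalised signal, obtained by dividing counts by a factor for each library (0.562 to 1.75). Per the labels, TruSeq libraries were read on a HiSeq2000, and the submitters' processing notes name STAR 2.4, HTSeq 0.6.1 and DESeq2 1.8 without the role of each. They name hg19 and mm10, but the coordinates in the table are those of GRCh38. Whether counting used strand is not stated in the sources here. The transcript length column, in bases, was deposited too and was not used for levels. The study's methods give a different dose of SAM, kit and sequencer, and a vehicle that held sulfuric acid and ethanol in PBS. The labels were followed, and the effect of the solvent was not tested. Arms with decitabine were not analysed here.

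Counts were tested in edgeR 4.0.16 (R 4.3.3) with glmQLFit and glmQLFTest after filterByExpr, which kept 15312 genes with 99.9% of counts, and TMM scaling, with treatment alone in the design. Tests were two-sided, with an adjusted p under 0.05 as the threshold. SE is the absolute log2 fold change over the square root of F. Of 57396 genes, 3413 carry no name and are known by identifier (0.468 to 0.619% of counts). Levels per kb use the GENCODE release 44 canonical transcript, found for all 74 members. Libraries of a group differed by 5.06 to 62.5 times the sampling noise (chi-square per degree of freedom), so none was merged. Depth ranged over 3.09-fold and limits low genes, with 3 counts equal to 0.103 to 0.322 CPM. On counts simulated for the SAM against control comparison over 15148 genes, the share of altered genes recovered was 49.3% at 1.5-fold (67 genes), 76.1% at 2-fold (67 genes) and 97.0% at 4-fold (66 genes), and 4 calls were false. These counts were drawn independently for each library from the fitted trend of dispersion. They lacked the shared deviation of control 1 and SAM 2 and the slopes on GC content and length. The simulation therefore does not give the error rate in the real libraries.

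The members and gene lists were chosen with earlier results of these data known. Values were given, by rule, for called members, the most abundant member of each family, neuropilins, teneurins, receptor or ligand partners of called members, and called genes of the partner list. Other named genes were chosen after their values were seen. Alternatives were RLE, upper-quartile and no scaling factors, no filter, a minimum of 1 CPM in any 3 libraries, DESeq2 1.42.0, robust dispersion, voom in limma 3.58.1, limma's trend on log2(signal + 1) with the deposited values, the replicate number as a block, libraries left out, a term for control 1 and SAM 2, and an adjusted p under 0.01. Taking out each library's dependence on GC content and length (known for 97.2% of tested genes) was chosen after seeing the data.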

Additional observations from a re-analysis of the deposited data

How the results depend on the processing

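All 14 called members kept their direction under every alternative run, and TENM4 alone kept its call under all 20. Counts given as higher and lower were 3 and 11 for members, 2 and 2 for partners, and 795 and 803 for all genes. With each library left out in turn they ran from 0 to 4 and 1 to 19 for members, 0 to 4 and 0 to 12 for partners, and 61 to 1661 and 78 to 1572 for all genes. Leaving out both control 1 and SAM 2 gave 2 and 5 members, 1 and 2 partners, and 446 and 508 genes, and a term for these libraries gave 4 and 14, 2 and 7, and 1256 and 1246. At an adjusted p under 0.01 there were 1 and 3 members, 1 and 0 partners, and 126 and 127 genes. Without a filter on low counts the numbers were 4 and 14, 2 and 5, and 1402 and 1341, and removal of the trend on length and GC content gave 4 and 18, 3 and 6, and 1674 and 1319. Library totals as the only scaling gave 608 higher and 961 lower genes, a split that differs from the main one, with 2 and 13 members. The cause of these shifts was not tested.

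Same-numbered libraries did not deviate together (r = -0.17, -0.40 and 0.13 for numbers 1, 2 and 3). These values also hold the shared deviation of control 1 and SAM 2, so they cannot show whether the numbers pair the samples. With the replicate block 1 member was higher and 9 were lower, against 1 and 2 partners and 440 and 588 genes. The calls of EPHA2, PLXNB2, SEMA3B, SEMA4C and SEMA7A were lost under the block. Members with few counts, such as SEMA3G with 256 in all, are limited most by depth.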

Other observations

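The 12 members that did not pass the filter were EFNA2, EPHA3, EPHA5, NTN3, NTNG2, ROBO2, SEMA5B, SLIT1, SLIT3, TENM1, UNC5C and UNC5D. None averaged more than 0.362 CPM over the 6 libraries, the level of ROBO2, and no fold change is given for them. SLIT1 had counts in SAM 1 alone, and SEMA5B had counts in control 2 and control 3 alone. Each family except the neuropilins, plexins and class 3 semaphorins had at least 1 such member.

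MAP2, a microtubule protein of dendrites, fell from 6.97, 7.49 and 7.49 CPM in control 1 to 3 to 4.31, 5.41 and 3.56 CPM in SAM 1 to 3 (log2 fold change -0.74, SE 0.17, edgeR adjusted p = 0.0266). CDH1, E-cadherin, fell from 365 ± 22.3 to 267 ± 31.7 CPM (SD, n = 3, edgeR adjusted p = 0.0298). It was the only epithelial marker of 5 that passed in the main test. The calls of MAP2 and CDH1 were lost without control 1, 2 or 3 or SAM 1 (adjusted p 0.0033 to 0.125 for MAP2 and 0.00327 to 0.141 for CDH1 over the alternatives). That of CDH1 was also lost with the replicate block. KRT19 did not pass in the main test (log2 fold change -0.29, SE 0.14). It was called lower without SAM 3 and with the length and GC correction (adjusted p 0.0054 to 0.41 over the alternatives). SNAP25, a synaptic protein, did not pass the filter, and its 42 counts gave 0.215 to 0.245 CPM in controls and 0.517 to 0.592 CPM with SAM.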
